A study of Mus musculus with 96 samples.

Results

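The microRNAs (miRNAs) of cardiomyocytes (CMs) were compared between hearts taken 3 days after myocardial infarction (D3) and hearts of mice that had no infarction (D0). The comparison rested on 8 of the 96 small RNA libraries of the series, namely the 4 labelled cardiomyocytes at day 3 and the 4 labelled cardiomyocytes at day 0. All mice were adult C57Bl/6J males, and in the D3 mice the left anterior descending coronary artery had been tied permanently. The D0 mice had no operation, so the effect of the infarct and that of the surgery itself cannot be told apart. A library stood for a pool of 3 mice (2 if 1 of them could not be used) and was prepared from 500 ng of total RNA with 14 PCR cycles. CMs were enriched by repeated slow centrifugation of the digested heart and were not sorted with an antibody. The other groups used below were CMs at D1 and D7 and, at D0 and D3, endothelial cells (ECs, CD144-coated beads), hematopoietic cells (HCs, CD45 beads) and fibroblasts (FBs, adherence to plastic), with 4 libraries each.

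A miRNA is cut from a hairpin precursor, and either arm of the hairpin, named 5p or 3p, can be loaded into the silencing complex. Bases 2 to 8 of the loaded arm, the seed, pair with target mRNAs, so miRNAs with the same seed share many predicted targets. In the heart, miR-1, miR-133, miR-208 and miR-499 are the miRNAs of muscle cells, and miR-208a, miR-208b and miR-499 lie in introns of the myosin genes Myh6, Myh7 and Myh7b. Infarction of the heart is known for death of CMs, inflammation, growth of scar tissue and a shift of the surviving CMs toward fetal genes.

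The sequences below belong to the miRNAs and hairpins on which the results turn, with the seed in capitals. They were taken from RefSeq (GRCm38.p6), which gave a sequence for 413 of the 484 miRNAs tested. The first group holds miRNAs with the largest rises at D3. Of these, miR-21a-5p comes from chr11:86584067-86584158, minus strand, in Vmp1, and miR-93-5p from chr5:138165523-138165610, minus strand, in Mcm7. Each of these hairpins touches an exon of some annotated transcript of its gene, and may lie in an intron of others. Both arms of miR-199a come from 2 hairpins antisense to Dnm3 and Dnm2.
miR-21a-5p: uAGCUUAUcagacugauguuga
miR-199a-5p: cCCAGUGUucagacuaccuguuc
miR-199a-3p: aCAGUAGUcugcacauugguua
miR-93-5p: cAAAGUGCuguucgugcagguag
The second group holds miRNAs with the largest falls. miR-148a-3p comes from chr6:51269812-51269910, minus strand, between genes, miR-30e-3p from chr4:120772606-120772697, minus strand, in an intron of Nfyc, miR-30a-3p from chr1:23272269-23272339, plus strand, between genes, and miR-181a-2-3p from chr2:38852735-38852810, plus strand, antisense to an intron of Nr6a1.
miR-148a-3p: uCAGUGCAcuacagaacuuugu
miR-30e-3p: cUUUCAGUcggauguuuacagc
miR-30a-3p: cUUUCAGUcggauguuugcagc
miR-181a-2-3p: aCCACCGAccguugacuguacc
The third group holds both arms of 3 hairpins whose arm ratio changed. They lie at chr5:138165737-138165818, minus strand, in an intron of Mcm7 (miR-106b), at chrX:7241982-7242046, minus strand, in an intron of Clcn5 (miR-362) and at chrX:19146294-19146388, minus strand, between genes (miR-221).
miR-106b-5p: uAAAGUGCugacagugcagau
miR-106b-3p: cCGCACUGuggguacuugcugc
miR-362-5p: aAUCCUUGgaaccuaggugugaau
miR-362-3p: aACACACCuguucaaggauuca
miR-221-5p: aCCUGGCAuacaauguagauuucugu
miR-221-3p: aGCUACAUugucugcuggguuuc

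The mature miRNA counts per library ranged from 10504090 to 16052359 at D0 and from 9780515 to 18110089 at D3, so depth was similar. The make-up of the libraries was not. miR-1a-3p alone took 65.7% ± 5.71 (SD, n = 4) of the counts at D0 and 49.6% ± 3.13 (SD, n = 4) at D3, and the number of miRNAs that made up 90% of the counts went from 9 to 12 at D0 to 21 to 27 at D3. Levels are given below as CPM (each count relative to the library's total mature count), which is the library size scale, and tests were run on the TMM scale, which sets the typical miRNA level between libraries. The TMM factors were 0.289 to 0.357 at D0 and 1.08 to 1.45 at D3. The median log2 fold change over all 484 miRNAs tested was therefore 0.44 on the TMM scale and 2.37 on the library size scale. Log2 fold changes below with no scale or alternative named are on the TMM scale. Differences between days after infarction and between cell types are on that scale unless stated. The D0 libraries also did not stand equally far from D3. Over all miRNAs tested, replicate 1 of D0 differed from the D3 libraries by 1.16 to 1.59 (root mean square of log2 differences), the other D0 replicates by 1.55 to 2.52, and D0 replicates from each other by 0.99 to 1.56.

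On the TMM scale 267 of 484 miRNAs differed at D3 (55.2%; edgeR quasi-likelihood test, Benjamini-Hochberg adjusted p under 0.05), 154 higher (31.8%) and 113 lower (23.3%). On the library size scale 397 differed (82%), 370 higher (76.4%) and 27 lower (5.58%). Without replicate 1 of D0 the TMM count was 284. All 154 TMM rises were also rises by library size, whereas 27 of the 113 TMM falls were falls by library size, 64 did not pass there and 22 were rises there. A further 40.1% of the miRNAs were higher by library size alone and 23 passed on neither scale. On the TMM scale the D3 libraries lay all above the D0 libraries for 92 miRNAs (19%) and all below for 104 (21.5%), and in CPM for 345 (71.3%) and 10 (2.07%). These are bulk libraries, in which fewer cells of a type and less RNA per cell cannot be told apart.

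**Figure D1:**
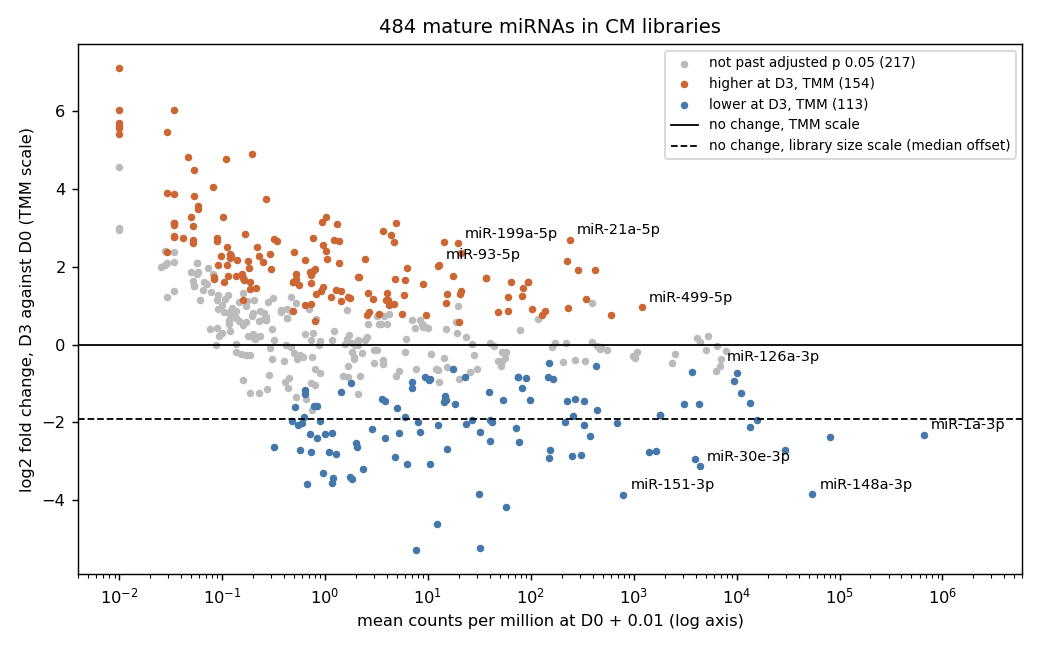
Mean CPM at D0 (log axis, 0.01 added) against the log2 fold change at D3 on the TMM scale (y axis) for the 484 miRNAs tested, each point 1 miRNA, with calls in colour. The solid line is no change on the TMM scale and the dashed line no change on the library size scale. miR-21a-5p lies above both lines and miR-148a-3p, miR-151-3p, miR-30e-3p and miR-1a-3p below both.

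Among abundant miRNAs the largest rises were those of miR-21a-5p, of the miR-199 arms and of miR-93-5p. In all, 50 miRNAs passed the rule for naming (past the test, groups apart on the TMM scale and a mean over the 8 libraries of 100 CPM or more), 14 of them higher and 36 lower on that scale. Over all 484 miRNAs the groups stood apart there for 19% as higher and 21.5% as lower. A higher mean level at D0 went with a lower TMM change over the 413 miRNAs with a sequence (Spearman's rho −0.55). miR-21a-5p, known to be induced by cardiac injury and inflammation, had 500, 153, 142.2 and 161 CPM in the D0 libraries and 3092, 6311, 7239 and 7117 CPM in the D3 libraries. Replicate 1 was the highest of the D0 libraries and the lowest of the D3 libraries, and the groups were far apart. The log2 fold change was 2.70 ± 0.35 (SE) on the TMM scale (adjusted p = 2.6e-06) and 4.64 by library size. Relative to miR-1a-3p in the same library, a ratio that no scaling touches, miR-21a-5p was 36.5-fold higher at D3 (exact permutation test, two-sided, p = 0.0286, the smallest that 4 against 4 libraries allow, adjusted p = 0.0327 over 24 such measures). The share of miR-1a-3p itself was smaller at D3, and most miRNAs rose relative to it.

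miR-199a-5p, a miRNA of fibroblasts and mural cells, had 32.2, 13.3, 15.6 and 17.2 CPM at D0 and 308, 461, 633 and 414 CPM at D3, a log2 fold change of 2.60 ± 0.32 on the TMM scale (adjusted p = 1.3e-06). Its paralogue miR-199b-5p went from 9.84 to 21.9 CPM at D0 to 229 to 475 CPM at D3 (2.64 ± 0.31, adjusted p = 1.09e-06). The 3p arms miR-199a-3p and miR-199b-3p were listed with the same counts in every library and form 1 measurement, which went from 21.03 to 80.8 CPM to 285 to 609 CPM (1.71 ± 0.35, adjusted p = 0.00029). All of these groups stood apart on both scales.

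miR-93-5p, from the Mcm7 cluster and with the seed of miR-17, had 27.9, 8.78, 6.48 and 7.5 CPM at D0 and 98.1, 145.3, 300 and 272 CPM at D3 (2.05 ± 0.45, adjusted p = 0.000567). Again replicate 1 of D0 was nearest to D3, and without it the log2 fold change was 2.65. miR-107-3p and miR-103-3p, which lie in introns of the pantothenate kinase genes Pank1, Pank2 and Pank3 and differ by 1 base, rose together, by 1.61 ± 0.33 and 1.46 ± 0.32 (adjusted p = 0.000306 and 0.00056). Reads of such a pair can be assigned to the wrong member, so their 2 values are not independent. miR-151-5p rose from 14.1 to 28.0 CPM to 121 to 304 CPM (1.37 ± 0.32, adjusted p = 0.00119) while the other arm of its hairpin fell. miR-499-5p, the last of the 10, is described with the cardiomyocyte miRNAs.

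The largest falls among abundant miRNAs were miR-151-3p, miR-148a-3p and the 3p arms of miR-30e and miR-30a. miR-148a-3p, a repressor of DNA methyltransferase and metabolic genes and here the third most abundant miRNA, had 15412, 35412, 84068 and 83398 CPM at D0 and 24919, 14392, 6557 and 7672 CPM at D3. Replicate 1 of D0 lay below replicate 1 of D3 in CPM, so that the groups overlapped there, whereas on the TMM scale every D3 library lay below every D0 library. The log2 fold change was −3.86 ± 0.76 on the TMM scale (adjusted p = 0.000223) and −2.03 by library size (adjusted p = 0.0021). miR-151-3p, from within the kinase gene Ptk2, had 279, 609, 1339 and 949 CPM at D0 and 300, 215, 125 and 159 CPM at D3, which is −3.87 ± 0.60 on the TMM scale (adjusted p = 1.71e-05) and −1.99 by library size.

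miR-30e-3p had 1940, 4333, 5639 and 5671 CPM at D0 and 2445, 1883, 1601 and 1565 CPM at D3 (−3.13 ± 0.48 on the TMM scale, adjusted p = 1.46e-05, and −1.23 by library size). miR-30a-3p, which differs from it by 1 base, went from 1851 to 5113 CPM to 1620 to 2435 CPM (−2.95 ± 0.45, adjusted p = 1.42e-05, and −1.05 by library size). In both, D0 replicate 1 was the only D0 library within the range of D3 in CPM. The other 6 largest falls were miR-181a-2-3p (−2.92 ± 0.38), the star arms miR-486b-3p (−2.87 ± 0.34) and miR-486a-3p (−2.83 ± 0.35), miR-10b-5p (−2.76 ± 0.51), miR-10a-5p (−2.73 ± 0.50) and miR-674-3p (−2.72 ± 0.50), with adjusted p between 1.09e-06 and 0.000109. The miR-10 miRNAs sit among the Hox genes, which set position along the body axis. By library size all 10 of these falls were still past the threshold, between −2.03 and −0.83, but in CPM the groups stood apart only for miR-486b-3p.

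**Figure D2:**
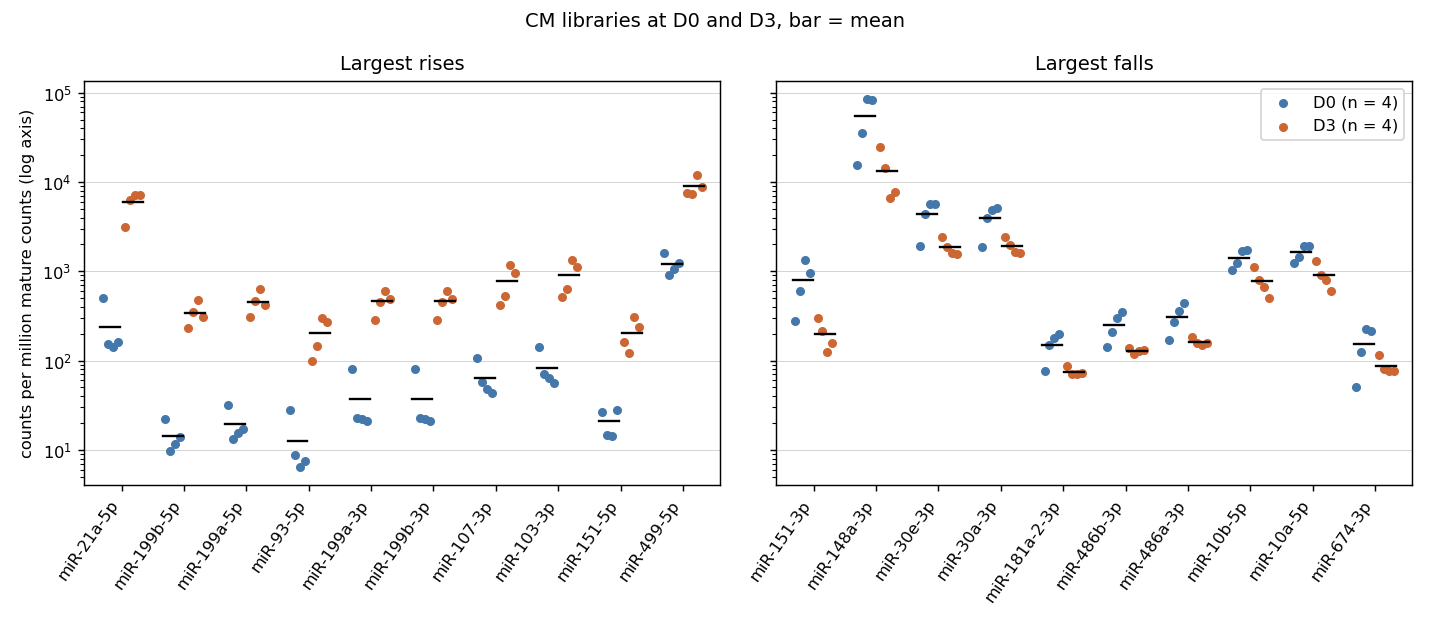
CPM (log axis) in each CM library for the 10 largest rises (left) and the 10 largest falls (right) on the TMM scale, D0 in blue and D3 in orange, with a bar at the mean of 4 libraries. The D3 points of the rises all lie above the D0 points, whereas among the falls the lowest D0 point, replicate 1, lies within or below the D3 points for 9 of the 10.

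The cardiomyocyte list held 12 miRNAs, all tested. On the TMM scale 4 rose, 1 fell and 7 did not pass, next to 31.8% and 23.3% of all miRNAs, with a median log2 fold change of 0.98 against 0.44 over all. By library size 11 rose and 1 fell. The miRNA that fell was miR-1a-3p, which represses genes of growth and of other lineages in muscle. It had 706355, 706983, 602031 and 614418 CPM at D0 and 512841, 517091, 449638 and 503320 CPM at D3, with no overlap. The log2 fold change was −2.33 ± 0.31 on the TMM scale (adjusted p = 3.33e-06) and −0.41 by library size (adjusted p = 0.0038), so its size depended on the scaling while its direction did not. miR-1b-5p is annotated on the strand opposite miR-1a-2, where the hairpin genes overlap by 72 bases, and had between 10.7% and 13.7% of the miR-1a-3p count in every library. Its log2 fold change of −2.38 ± 0.34 (−0.47 by library size) is therefore not an independent value.

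Relative to miR-1a-3p, 4 other arms of the list were tested, and all 4 were higher at D3. By library size miR-1a-3p fell while 76.4% of all miRNAs rose (median log2 fold change 2.37), so most miRNAs rose relative to it. miR-499-5p, from an intron of the myosin gene Myh7b at chr2:155622880-155622958, plus strand, had 1609, 912, 1054 and 1224 CPM at D0 and 7524, 7294, 12074 and 8774 CPM at D3. The groups stood apart on both scales, with a log2 fold change of 0.96 ± 0.21 on the TMM scale (adjusted p = 0.000679) and 2.89 by library size. miR-133a-3p, which restrains growth of muscle cells, had 903, 295, 186 and 182 CPM at D0 and 1467, 1830, 5746 and 3972 CPM at D3. Its log2 fold change of 1.07 ± 0.46 did not pass on the TMM scale (adjusted p = 0.0548) and was 3.06 by library size. It passed with DESeq2 and with RLE factors (1.15 each) and with no filter on low counts (1.37). Without replicate 1 of D0, the library with 903 CPM, it was 1.74 (adjusted p = 0.00165), and it also passed without D3 replicate 1 (1.25) or D3 replicate 2 (1.21).

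miR-133b-3p, at 87.6% to 95.9% of the count of miR-133a-3p in every library, gave 1.16 ± 0.47 (adjusted p = 0.0408), a call that was lost without any 1 of D0 replicates 2, 3 and 4 and D3 replicates 3 and 4 (0.76 to 1.07), and with identical miRNAs counted once (1.05, adjusted p = 0.0506). The rarer arm miR-133a-5p rose from 2.45 to 13.2 CPM to 33.5 to 136 CPM (1.67 ± 0.51, adjusted p = 0.00761), and without replicate 3 of D3 it was 1.25 and did not pass (adjusted p = 0.0518). miR-208a-3p, from an intron of Myh6 at chr14:54949060-54949142, minus strand, had 173, 78.6, 111 and 104 CPM at D0 and 460, 595, 1139 and 669 CPM at D3. Its log2 fold change was 0.66 ± 0.30 on the TMM scale (adjusted p = 0.0676) and 2.62 by library size. Without replicate 1 of D0 it was 0.79 (adjusted p = 0.041), and it also passed on the D0 and D3 libraries alone (0.72) and with no filter (0.98).

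miR-208b-3p, from an intron of Myh7, the myosin gene of the fetal and stressed ventricle, rose from 1.84 to 2.67 CPM at D0 to 13.0 to 56.9 CPM at D3 (1.73 ± 0.48, adjusted p = 0.00402), with no overlap on either scale. The ratio of miR-208b-3p to miR-208a-3p was 1.86-fold higher at D3, which did not pass the exact permutation test (p = 0.0571, adjusted p = 0.0623). Relative to miR-1a-3p in the same library, miR-208a-3p was 8.0-fold, miR-499-5p 9.86-fold, miR-133a-3p 12.03-fold and miR-133a-5p 17.8-fold higher at D3, each with the groups apart (exact permutation p = 0.0286, adjusted p = 0.0327). Most miRNAs also rose relative to miR-1a-3p, which fell by library size while the median log2 fold change over all miRNAs was 2.37. The remaining 5 list members, miR-208a-5p, miR-499-3p, miR-1a-1-5p, miR-1a-2-5p and miR-208b-5p, are rare arms with at most 23.4 CPM and TMM log2 fold changes between −0.32 and 1.13, none past the threshold.

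**Figure D3:**
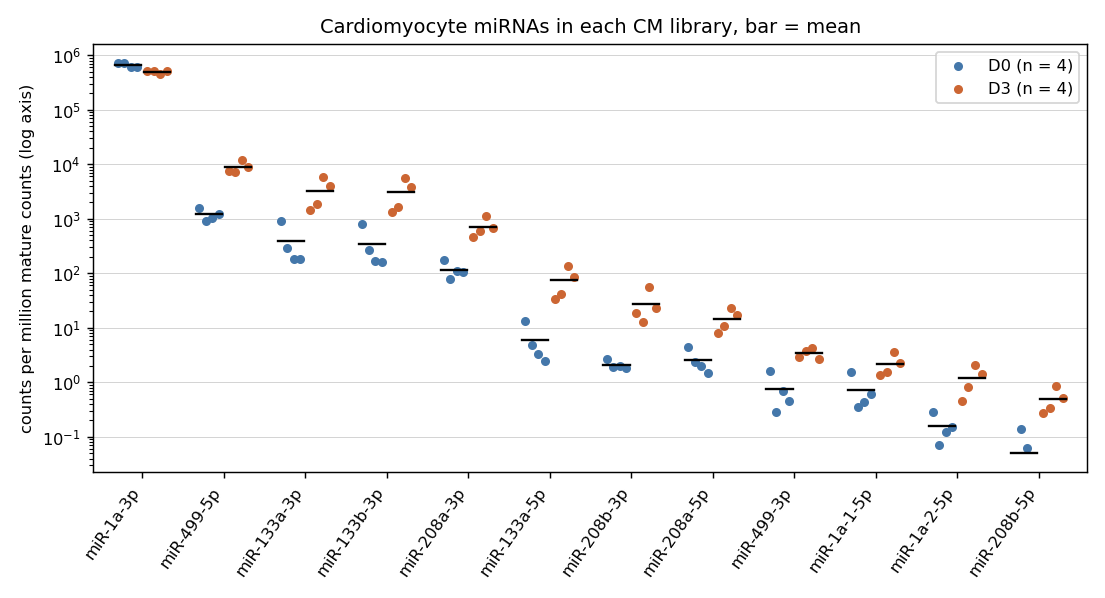
CPM (log axis) of the 12 cardiomyocyte miRNAs in each CM library, D0 in blue and D3 in orange, with a bar at the mean of 4 libraries. A log axis has no place for 0, so the D0 libraries without a count of miR-208b-5p are not drawn. miR-1a-3p lies lower at D3 and every other member has a higher mean CPM at D3.

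The label of the cells was checked against the other 3 cell types at the same days. At D0 the mean of miR-1a-3p was highest in CMs, at 657447 CPM, followed by HCs (107915), ECs (102953) and FBs (3191). Mean miR-499-5p was 1200 CPM in CMs and 924 in HCs at D0, and mean miR-133a-3p at D0 was lower in CMs (391 CPM) than in ECs (1143) and HCs (753). At D3 the CM libraries had the highest means of both, 8917 CPM of miR-499-5p and 3254 CPM of miR-133a-3p. Mean miR-208a-3p was highest in CMs on both days. It was 117 CPM at D0, next to 89.5 in HCs, 41.2 in ECs and 2.56 in FBs. At D3 it was 716 CPM in CMs, next to 60.1 in HCs, 27.2 in ECs and 2.81 in FBs. As CPM, these levels are shares of libraries in which miR-1a-3p took very different parts.

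Markers of other cell types were counted in the CM libraries, and the lists of fibroblasts and leukocytes held more rises than falls. The fibroblast list, miR-199a, miR-199b and miR-214, rose in 6 of 6 members on the TMM scale (5 of them distinct, median log2 fold change 2.16), where 31.8% of all miRNAs rose, and in 6 of 6 by library size, where 76.4% did. Its summed level was 69.5 to 217 CPM at D0 and 1118 to 2342 CPM at D3, and it was 17.7-fold higher by exact permutation of its share (adjusted p = 0.0327). miR-199a-5p in CMs had 0.146% of its mean FB level at D0 and 2.30% at D3, and miR-214-3p was at 0 in 1 D0 library. In FBs themselves miR-199a-5p differed by 0.04 at D3 (adjusted p = 0.933).

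The leukocyte list, of which 7 of 8 members were tested, rose in 5 on the TMM scale (31.8% over all miRNAs) and in 6 by library size (76.4%). miR-223-3p, the miRNA of neutrophils and monocytes, had 0.19, 0.142, 0.0623 and 0 CPM at D0 and 2.12, 6.63, 19.3 and 15.2 CPM at D3. miR-142a-3p, found in all blood cells, rose from 0.535 to 1.62 CPM to 17.2 to 43.1 CPM (3.15 ± 0.46, adjusted p = 1.02e-05). At D3 these were 0.388% and 0.272% of their means in HCs. miR-342-3p rose by 1.32 ± 0.47 (adjusted p = 0.0192), a call lost without D0 replicate 3 (1.08), D0 replicate 4 (0.94) or D3 replicate 3 (1.13), and miR-150-5p, a lymphocyte miRNA, had 13.7 to 73.6 CPM at D0 and 42.0 to 113 CPM at D3 and did not pass on the TMM scale (−0.63, adjusted p = 0.184), with the opposite sign by library size (1.31). The summed leukocyte level was 15.6 to 82.3 CPM at D0 and 111 to 215 CPM at D3.

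In the endothelial list, 2 of 4 members passed on the TMM scale, both as higher (31.8% over all miRNAs), and 4 of 4 were higher by library size (76.4%). The 2 that passed on the TMM scale had nearly identical counts and are not independent values. miR-126a-5p and miR-126b-3p, annotated on opposite strands of the same place, went from 52.3 to 216 CPM at D0 to 545 to 1901 CPM at D3 (1.61 ± 0.44, adjusted p = 0.00376). The main arm miR-126a-3p, which maintains vessel integrity, had 4371 to 9573 CPM at D0 and 15918 to 21039 CPM at D3, with a log2 fold change of −0.56 ± 0.24 on the TMM scale (adjusted p = 0.0527) and 1.36 by library size. Without D0 replicate 2 or 4 or D3 replicate 1 or 3 the TMM value passed as lower (−0.74 to −0.66), as it did with DESeq2 and RLE factors (−0.53 each) and with identical miRNAs counted once (−0.70). Its mean in CMs was 3.53% of that in ECs at D0 and 9.45% at D3, and that of miR-126a-5p was 1.97% and 21.1%. The part of these other cells in any result below was not tested.

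The mural list of miR-143 and miR-145, miRNAs of smooth muscle and pericytes, had no rise and 1 fall in 4 members on the TMM scale (31.8% and 23.3% over all miRNAs). miR-143-3p had 22007, 25698, 36076 and 34386 CPM at D0 and 20076, 18564, 14022 and 13900 CPM at D3, lower on both scales (−2.72 ± 0.43, adjusted p = 2.08e-05, and −0.83 by library size). miR-145a-5p had a TMM value of 0.07 (adjusted p = 0.832), of no settled sign across alternatives, and 2.02 by library size. In the erythroid list 3 of 5 rose and 2 fell on the TMM scale, next to the same 31.8% and 23.3%, and by library size 3 rose and none fell (76.4% and 5.58% over all). miR-451a, processed without Dicer in red cells, went from 0.637 to 1.62 CPM to 10.5 to 17.6 CPM (1.41 ± 0.44, adjusted p = 0.00933), whereas miR-486a-5p and miR-486b-5p, listed with identical counts and also made in muscle, went from 1684 to 1928 CPM to 1889 to 1976 CPM (−1.82 on the TMM scale, adjusted p = 1.09e-06, and 0.10 by library size). In the liver and gut list 2 of 6 rose, a share near the 31.8% of all miRNAs, and 3 fell (23.3% over all), with miR-194-5p at 1.76 ± 0.44 (adjusted p = 0.00186), miR-192-5p at −2.08 ± 0.41 (adjusted p = 0.000227) and miR-215-5p at −1.43 ± 0.38 (adjusted p = 0.00292). By library size miR-192-5p was at −0.19 and miR-215-5p at 0.47, neither past the threshold. miR-194-5p comes from 2 hairpins, one beside miR-192 on chromosome 19 and one beside miR-215 on chromosome 1, so its value belongs to neither place alone.

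The miRNAs of the miR-17 clusters promote proliferation. Of 12 members tested 9 rose, 2 fell and 1 did not pass on the TMM scale, next to 31.8% and 23.3% of all miRNAs, with a median log2 fold change of 2.17, and by library size 11 rose and none fell (76.4% and 5.58% over all). miR-20a-5p had 55.5, 8.49, 9.47 and 9.41 CPM at D0 and 157, 285, 643 and 556 CPM at D3 (2.35 ± 0.57, adjusted p = 0.00146), and miR-17-5p had 11.7, 2.34, 2.74 and 2.83 CPM at D0 and 51.7, 101, 308 and 209 CPM at D3 (3.12 ± 0.61, adjusted p = 0.00019). Replicate 1 of D0 again stood above the other D0 libraries. All 6 miRNAs with the miR-17 seed AAAGUGC, seen above in miR-93-5p and miR-106b-5p, rose, by 1.81 to 3.28. The 2 members that fell, miR-25-3p and miR-106b-3p, come from the same Mcm7 cluster as miR-93-5p. miR-25-3p had 248 to 290 CPM at D0 and 329 to 446 CPM at D3 and was lower on the TMM scale (−1.40 ± 0.22, adjusted p = 1.52e-05) but higher by library size (0.53, adjusted p = 0.0169).

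The miR-15 family, which blocks the cell cycle, rose in 5 of 6 members on the TMM scale (31.8% over all miRNAs), with a median of 1.89, and in 6 of 6 by library size (76.4%). miR-16-5p had 109, 45.5, 40.7 and 43.8 CPM at D0 and 291, 351, 928 and 633 CPM at D3 (1.23 ± 0.31, adjusted p = 0.00219), and miR-322-5p rose by 1.69 ± 0.51 (adjusted p = 0.00707). miR-195a-5p did not pass (0.42 ± 0.23, adjusted p = 0.119), but did so without replicate 1 of D0 (0.60, adjusted p = 0.0198) and with DESeq2 (0.46, adjusted p = 0.0469). The miR-29 family, repressors of collagen genes, rose in 4 of 6 tested on the TMM scale (31.8% over all miRNAs) and in 6 of 6 by library size (76.4%). miR-29a-3p had 850, 296, 227 and 297 CPM at D0 and 2649, 3608, 11985 and 6745 CPM at D3 (1.91 ± 0.43, adjusted p = 0.000735). miR-29c-3p, which differs from it by 1 base, gave 1.91 ± 0.41, and miR-29b-3p gave 1.00 ± 0.53 and did not pass (adjusted p = 0.109), but did so on the D0 and D3 libraries alone (1.05, adjusted p = 0.0418) and with no filter (1.303).

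The inflammation list rose in 5 of 10 tested on the TMM scale (31.8% over all miRNAs) and in 8 by library size (76.4%). The members that rose were both arms of miR-21a, miR-132-3p, miR-212-3p and miR-147-3p. miR-155-5p and miR-146a-5p, induced by NF-kB in leukocytes, had 36.7 to 78.6 and 36.1 to 93.2 CPM at D0 and 127 to 226 and 169 to 209 CPM at D3, with TMM values of −0.35 (adjusted p = 0.198) and −0.19 (adjusted p = 0.515) and library size values of 1.62 and 1.72. The hypoxia and p53 list rose in 4 of 6 tested on the TMM scale (31.8% over all miRNAs) and in 6 of 6 by library size (76.4%). miR-210-3p, the miRNA most directly driven by the hypoxia factor HIF, had 10.9, 2.69, 2.43 and 2.75 CPM at D0 and 42.6, 59.97, 216 and 141 CPM at D3 (2.64 ± 0.55, adjusted p = 0.000358). Of the p53-driven miR-34 family, miR-34c-5p rose from 0.779 to 1.81 CPM to 29.5 to 51.7 CPM (3.09 ± 0.29, adjusted p = 4.58e-08) and miR-34a-5p from 6.42 to 34.7 CPM to 106 to 185 CPM (1.297 ± 0.37, adjusted p = 0.00515).

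The let-7 and miR-30 families had medians below 0 on the TMM scale (−0.34 and −0.72) and above 0 by library size (1.61 and 1.23). In the let-7 family, inhibitors of growth that mark mature cells, 4 of 9 tested fell and none rose on the TMM scale (23.3% and 31.8% over all miRNAs), and 8 rose by library size (76.4%). let-7f-5p had 14366, 15304, 11272 and 13384 CPM at D0 and 18915, 19062, 17705 and 17381 CPM at D3, which is −1.49 ± 0.22 (adjusted p = 9.82e-06) on the TMM scale and 0.43 (adjusted p = 0.0105) by library size. let-7a-5p gave −1.26 and 0.67 and let-7g-5p −0.70 and 1.21 on the 2 scales, the value of −0.70 not passing with no filter (−0.37). In the miR-30 family, repressors of connective tissue growth factor, 2 of 11 rose and 6 fell on the TMM scale (31.8% and 23.3% over all miRNAs), and 8 rose and 2 fell by library size (76.4% and 5.58%). The main arms miR-30a-5p (−0.72 ± 0.26, adjusted p = 0.0214) and miR-30d-5p (−0.94 ± 0.27, adjusted p = 0.0054) were lower there and higher by library size (1.23 and 0.99), the first not passing without replicate 3 of D0 (−0.43, adjusted p = 0.137) or on the D0 and D3 libraries alone (−0.71, adjusted p = 0.0725) and both not passing with no filter (−0.39 and −0.61), and miR-30c-5p did not pass (−0.15, and 1.77 by library size). Only the 3p arms miR-30a-3p and miR-30e-3p of this family were lower on both scales.

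The miR-23, miR-27 and miR-24 clusters had 2 rises and 2 falls in 7 on the TMM scale, near the shares over all miRNAs (31.8% and 23.3%). miR-27b-3p and miR-27a-3p, at 4523 to 6682 and 3930 to 5162 CPM at D0 and 19828 to 24532 and 15293 to 18656 CPM at D3, gave 0.22 ± 0.18 and 0.07 ± 0.18 on the TMM scale and 2.15 and 2.00 by library size, and miR-24-3p gave −0.31 ± 0.17 and 1.62, the former passing as lower with identical miRNAs counted once (−0.46, adjusted p = 0.0342). The hypertrophy and metabolism list had 3 rises and 2 falls in 10, also near those shares. miR-378a-3p, from the gene of a regulator of mitochondria, had 6887 to 9166 CPM at D0 and 24914 to 28836 CPM at D3 (−0.16 ± 0.20 on the TMM scale, 1.75 by library size), and miR-26a-5p gave 0.17 ± 0.19 and 2.09. The third of its abundant members was miR-148a-3p. The summed share of this list did not pass (1.08-fold at D3, exact permutation p = 0.743), and that of the erythroid list was 1.08-fold higher with p = 0.0857 (adjusted p = 0.0894). The shares of the other 14 lists had an exact permutation p = 0.0286 each (adjusted p = 0.0327), 12 higher and those of the cardiomyocyte and mural lists lower. Shares are on the library size scale. In CPM the D3 libraries lay all above the D0 libraries for 71.3% of all miRNAs and all below for 2.07%.

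Seed families beyond these lists were also read together. The 3 miRNAs with the seed of miR-99a and miR-100, regulators of mTOR, all fell on the TMM scale (−2.13 to −1.95), where 23.3% of all miRNAs fell. None of the 3 passed by library size. In the miR-148 and miR-152 family 2 of 3 fell on the TMM scale (23.3% over all miRNAs), miR-148a-3p and miR-148b-3p, and miR-152-3p was at 0.04 (adjusted p = 0.89). By library size miR-148a-3p was at −2.03, miR-148b-3p at 0.23 and miR-152-3p at 1.97. Among miRNAs of 1 genomic cluster, the 3 Dlk1-Dio3 clusters on chromosome 12, imprinted and active in fetal tissue, had 18 rises in 32, 5 in 9 and 2 in 2 (miR-341-3p and miR-370-3p) on the TMM scale, with no fall (31.8% and 23.3% over all miRNAs). The most abundant members of the first and second, miR-381-3p and miR-127-3p, averaged 27.6 and 63.5 CPM over the 8 libraries but did not pass. The most abundant members that rose were rarer, namely miR-541-5p (13.5 CPM) in the first and miR-434-3p (5.51 CPM) in the second. Some that rose were close to 0, such as miR-154-3p (0.284 CPM).

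**Figure D4:**
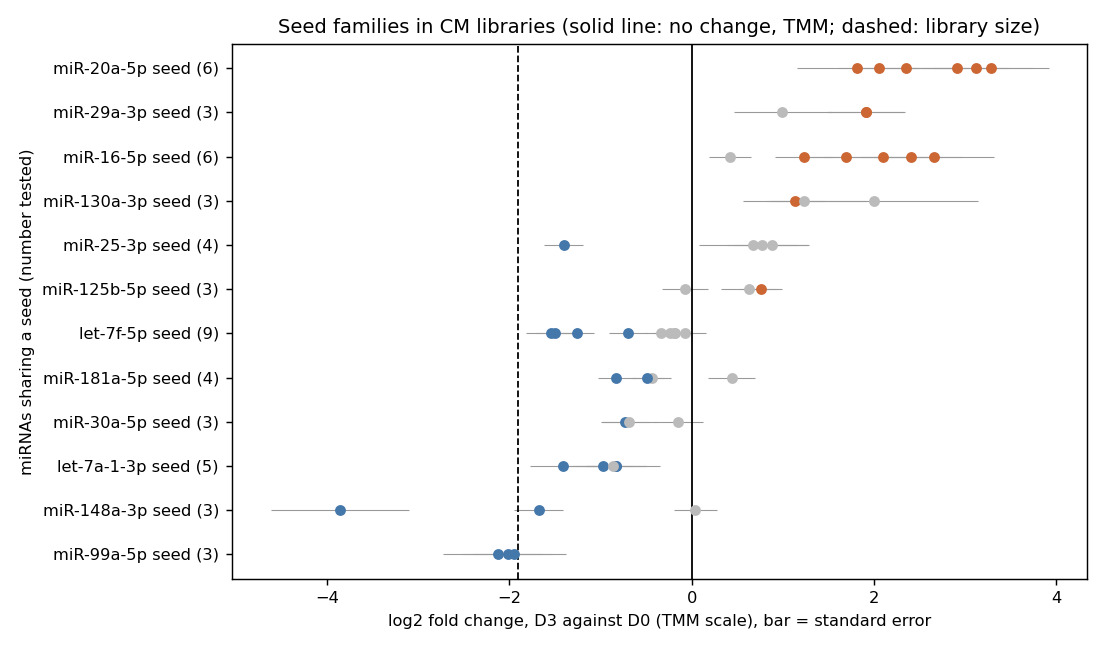
Log2 fold change at D3 on the TMM scale (x axis, bar = SE) of miRNAs grouped by a shared seed (y axis, each family named by its most abundant member), for families with at least 3 tested miRNAs and a member at 10 CPM or more. Orange and blue points passed as higher and lower, grey points did not pass. The 6 miRNAs of the miR-20a-5p seed lie between 1.81 and 3.28, and the 3 of the miR-99a-5p seed between −2.13 and −1.95, close to the dashed line of no change by library size.

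The 2 arms of a hairpin are cut from the same precursor and counted in the same library, so their ratio needs no scaling. Arms were paired by name, so miRNAs made from more than 1 hairpin, such as miR-199a, entered as 1. For these a change of the ratio need not lie within 1 precursor. Of 99 hairpins with at least 10 counts per arm on average over the 24 CM libraries, 68 changed their 5p to 3p ratio at D3 (68.7%; limma on the log2 ratio with 0.5 added, adjusted p under 0.05), 35 toward 5p (35.4%) and 33 toward 3p (33.3%). In 48 hairpins the groups stood apart. The ratio moved toward equal arms, or past equality, in 47 of the 68 and away from it in 21. The D0 ratio enters both the starting point and the change in this split. Which arm was the more abundant on average changed in 11. In 16 of the 68 the arms passed in opposite directions on the TMM scale, in 14 in the same direction and in 37 only 1 arm passed.

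The hairpin of miR-151 had log2 ratios of −3.40, −5.37, −6.56 and −5.08 at D0 and −0.91, −0.83, 1.29 and 0.59 at D3, a difference of 5.14 ± 0.76 (SE, adjusted p = 2.87e-05). At D0 the 3p arm had a mean of 11359 counts and the 5p arm 269, and at D3 the means were 2615 and 2636 counts. The hairpin of miR-106b went from −4.57, −4.97, −5.98 and −5.72 to −1.85, −0.98, 1.16 and 0.03, a difference of 4.90 ± 0.80 (adjusted p = 8.25e-05). Its 5p arm, which has the miR-17 seed, had 0.748 to 1.24 CPM at D0 and 9.79 to 83.7 CPM at D3, whereas its 3p arm had 30.5 to 50.4 and 35.5 to 46.4 CPM. The 5p arm was thus higher on both scales (3.28 on the TMM scale), and the 3p arm was lower on the TMM scale (−1.996) and at −0.07 by library size. The ratios of miR-674 (4.08 ± 0.74), miR-143 (3.68 ± 0.83) and miR-361 (3.41 ± 0.80) rose next among hairpins with a mean of 50 or more counts on each arm, each with the groups apart. Among those with fewer counts, miR-582 rose by 7.31, miR-708 by 4.56, miR-671 by 4.04 and miR-503 by 3.43, and miR-664 fell by 4.59 on the log2 scale.

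The largest moves toward the 3p arm among hairpins with 50 or more counts per arm were those of miR-362, miR-221, miR-379, miR-27b and let-7i. The hairpin of miR-362 went from 1.82, 2.50, 3.70 and 4.25 at D0 to 1.06, 0.31, −0.71 and −0.09 at D3 (−2.92 ± 0.55, adjusted p = 0.00022), but its 3p arm had only 0 to 7 counts per library at D0. The hairpin of miR-221, whose 3p arm promotes proliferation, went from −1.68, −0.37, −1.22 and −0.90 to −3.10, −3.80, −4.50 and −4.34 (−2.90 ± 0.49, adjusted p = 9.2e-05). Its main arm miR-221-3p rose from 28.4 to 73.5 CPM to 239 to 447 CPM (0.84 ± 0.26, adjusted p = 0.0093), and miR-221-5p had 12.2 to 32.9 CPM at D0 and 17.7 to 27.8 CPM at D3. miR-379 (−2.54 ± 0.51), miR-27b (−2.45 ± 0.36) and let-7i (−2.33 ± 0.55) followed. The abundant arms of miR-30a and miR-30e, whose 3p arms were among the largest falls, gained on them by 2.25 and 2.50 on the log2 scale.

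**Figure D5:**
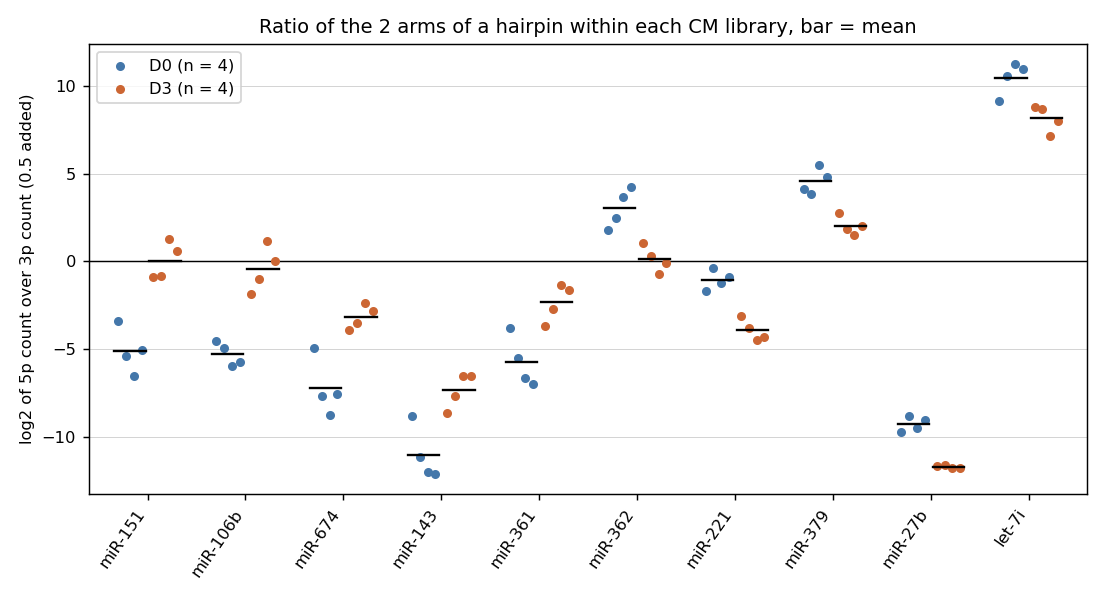
Log2 ratio of the 5p count to the 3p count (y axis, 0.5 added to each) in each CM library for the 10 named hairpins, D0 in blue and D3 in orange, bar = mean of 4 libraries. The line at 0 marks equal arms. The groups do not overlap in any of the 10, and miR-151 and miR-106b reach the line at D3.

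The D3 values were set against those of the neighbouring days by direct tests on the TMM scale, since all days share the D0 libraries. Between D1 and D3, 58 of 484 miRNAs differed (12%), 40 higher (8.26%) and 18 lower (3.72%) at D3, and between D3 and D7, 15 differed (3.1%), 7 higher (1.45%) and 8 lower (1.65%) at D7. These counts rested on single libraries. Leaving out D1 replicate 1 made the first 19 and leaving out D1 replicate 3 made it 116, and the second was 1 when D3 replicate 1 was left out and 43 when D3 replicate 3 was. Against D1, miR-21a-5p was higher at D3 by 1.58 (adjusted p = 0.00288), miR-199b-5p by 1.49 (adjusted p = 0.00185), miR-199a-5p by 1.45 (adjusted p = 0.00268) and miR-199a-3p by 1.16 (adjusted p = 0.032), whereas miR-93-5p (0.47, adjusted p = 0.458) did not pass. miR-30e-3p and miR-30a-3p were lower at D3 than at D1 by −1.43 (adjusted p = 0.0397) and −1.33 (adjusted p = 0.0441), and miR-151-3p, miR-148a-3p and miR-181a-2-3p did not pass (adjusted p = 0.0674, 0.0674 and 0.0631). The calls for miR-199a-3p, miR-30e-3p and miR-30a-3p were each lost without any 1 of D1 replicates 1 and 2 and D3 replicates 2, 3 and 4, and the 3 falls that did not pass were past the threshold without D1 replicate 3 or 4 or D3 replicate 1. None of these 10 miRNAs passed between D3 and D7.

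The change at D3 in CMs was also tested on the TMM scale against the mean change in ECs, FBs and HCs, over 32 libraries and 637 miRNAs. It differed for 271 (42.5%), 175 of them with the more positive change in CMs. The cell types of a day came from the same animals and were prepared in batches of 1 cell type each. The fit took the 32 libraries as independent, so its p-values do not account for the shared animals. Replicate 3 of HCs at D0 had only 18286 counts, and without it the count was 280. The authors removed 1 D0 replicate of HCs and 1 of FBs as outliers, without giving their numbers. All were kept here, and no fit left out a library of FBs. miR-148a-3p had the largest difference among the 5 largest rises and 5 largest falls, with a log2 fold change of −3.70 in CMs next to 0.12 (ECs), −0.14 (FBs) and 0.45 (HCs), none of these 3 past the threshold, and a difference of −3.84 ± 0.45 (adjusted p = 2.08e-08). miR-151-3p differed by −2.59 ± 0.41 (adjusted p = 4.25e-06), though it also fell in FBs (−1.08) and HCs (−2.01). miR-30e-3p and miR-30a-3p differed by −1.99 and −1.78 and also fell in FBs and HCs. miR-199a-5p rose in CMs by 2.74, rose in ECs by 1.01, was at 0.04 in FBs and fell in HCs by 0.91, a difference of 2.70 ± 0.28 (adjusted p = 1.67e-09). miR-21a-5p rose in all 4 cell types, with log2 fold changes of 2.85 (CMs), 2.29 (ECs), 1.68 (FBs) and 1.46 (HCs), and the difference was 1.04 ± 0.32 (adjusted p = 0.00896). miR-93-5p differed by 1.39 ± 0.37 (adjusted p = 0.00273).

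The sequences of the 413 matched miRNAs were compared with the calls as a description. The median GC content was 44% in the 137 that were higher on the TMM scale, 50% in the 95 that were lower and 47.6% in all 413, and Spearman's rho of GC content with the log2 fold change was −0.17 across miRNAs. Of the 75 miRNAs with no G or C among their first 3 bases 45.3% were higher and 10.7% lower, against 33.2% and 23.0% of all 413. Of the 42 miRNAs with a GC content under 35%, 40.5% were higher and 9.52% lower. The mean level at D0 went with the change more closely, with a rho of −0.55 across the same miRNAs, a relation in which D0 enters both measures. These miRNAs share their libraries and are not independent of each other.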

How the data were processed

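Small RNA was sequenced on the Illumina HiSeq platform from libraries made by ligating adaptors to both RNA ends, cut from a gel at miRNA size. The authors quantified mature miRNAs of miRBase with the nf-core small RNA pipeline, from reads that had their adaptors trimmed and were not too short. The submitters' processing notes name Trim Galore, Bowtie2, SAMtools and build mm10, with no role or version. The values deposited were raw counts per mature miRNA (1978 listed per library), with no normalization. In the CM libraries 203 miRNAs, in 49 sets, had the same counts as another miRNA throughout. Unmatched reads, 29.0% to 44.9% of the total in the 8 libraries, entered neither library sizes nor tests. Hairpin tables were not used. Mature counts of 9780515 to 18110089 per library set the counting error, which is largest for rare miRNAs.

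From these counts, changes were fitted on all 24 CM libraries (484 miRNAs after filterByExpr) with edgeR 4.0.16 in R 4.3.3, TMM factors, the quasi-likelihood test and Benjamini-Hochberg adjustment. Arm ratios were fitted with limma 3.58.1 (pseudocount 0.5, mean of at least 10 counts per arm). Shares and ratios of 4 against 4 libraries used exact two-sided permutation tests over 70 arrangements. Alternatives were DESeq2 1.42.0, RLE factors, library size with and without miR-1a-3p, no filter, the compared days alone, identical miRNAs once, a replicate block, each library left out, and for arms a pseudocount of 5 and a minimum of 50 counts. Scripts were tested on simulated data. The miRNAs named were the 10 largest rises and 10 largest falls, the 3 most abundant members of each list and all tested members of the cardiomyocyte list, the 3 most abundant miRNAs, the 5 hairpins with the largest move each way (50 or more counts per arm) and miRNAs with counts identical to these. Other miRNAs in the text were named after their values were seen. The comparison, members and lists were chosen with earlier results of these data known. Replicates were pools of mice, so p-values measure the spread between pools.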

Additional observations from a re-analysis of the deposited data

Results flagged for a closer look

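Within groups of 4 libraries, 26 of 220 examined had a library far from the others by Dixon's test at 95%, where chance gives about 1 in 20. In 16 of the 26 it was replicate 1 of D0. On the TMM scale (log2 CPM) that library was the highest of D0 for miR-21a-5p (10.5), miR-199a-5p (6.58), miR-126a-5p and miR-126b-3p (9.32), miR-210-3p (5.01), miR-20a-5p (7.36) and miR-195a-5p (5.11), and the lowest for miR-30e-3p (12.5), miR-30a-3p (12.4) and miR-181a-2-3p (7.82). It also had the highest summed share (log2 CPM) of the fibroblast list (7.76), the inflammation-induced list (9.44), the miR-15 family (7.15) and the miR-23, miR-27 and miR-24 clusters (13.7), the highest log2 ratio of miR-21a-5p to miR-1a-3p (−10.5) and the most miRNAs detected (548).

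Replicate 3 of D3 was the lowest for miR-378a-3p (14.1) and for the share of the cardiomyocyte list (18.9), and the highest for the share of the endothelial list (14.6) and the log2 ratio of miR-126a-3p to miR-1a-3p (−4.42). Replicate 1 of D3 was the lowest for miR-199a-3p and miR-199b-3p (8.04) and the highest for the hypertrophy and metabolism list (16.3). Replicate 4 of D3 was the highest for miR-25-3p (8.46). At D0, replicate 4 had the most unmatched reads (42.0%) and replicate 2 the largest share of counts on its 10 most abundant miRNAs (91.1%).

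Of the 5 largest rises and 5 largest falls, all 10 changed at D3 in CMs by a different amount from the mean of the other cell types. The differences were 1.04 for miR-21a-5p, 2.74 for miR-199b-5p, 2.70 for miR-199a-5p, 1.39 for miR-93-5p, 1.99 for miR-199a-3p, −2.59 for miR-151-3p, −3.84 for miR-148a-3p, −1.99 for miR-30e-3p, −1.78 for miR-30a-3p and −1.66 for miR-181a-2-3p (log2 on the TMM scale, edgeR, adjusted p under 0.05). D3 also differed from D1 in CMs for miR-21a-5p (1.58), miR-199b-5p (1.49), miR-199a-5p (1.45), miR-199a-3p (1.16), miR-30e-3p (−1.43) and miR-30a-3p (−1.33).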

How the results depend on the processing

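The count of miRNAs that differed at D3 stayed within 1.5 times of 267 in every alternative, from 227 (without replicate 3 of D3) to 397 (library size), but its split did not. It was 154 higher and 113 lower on the TMM scale, 370 and 27 by library size, 333 and 51 by library size without miR-1a-3p, and 161 and 128 with DESeq2. The difference between D7 and D3 (15) was 52 with DESeq2 and 29 with the replicate block, and 1 to 43 with single libraries left out. That between D3 and D1 (58) was 19 to 116. The named miRNAs were also tested by library size alone at D3 against D0, between days and between cell types. In these tests 5 calls kept their sign but no longer passed. By library size alone the sign turned to positive for miR-1a-1-5p (1.61), miR-126a-3p (1.36), miR-150-5p (1.31), miR-486a-5p and miR-486b-5p (0.10), miR-146a-5p (1.72), miR-155-5p (1.62), miR-30a-5p (1.23), miR-30d-5p (0.99), miR-30c-5p (1.77), let-7f-5p (0.43), let-7a-5p (0.67), let-7g-5p (1.21), miR-25-3p (0.53), miR-24-3p (1.62), miR-378a-3p (1.75), miR-215-5p (0.47) and, at D7 against D3, miR-93-5p (0.22). Without miR-1a-3p in the library size it turned for miR-1a-1-5p (0.99), miR-126a-3p (0.76), miR-150-5p (0.60), miR-146a-5p (1.11), miR-155-5p (0.97), miR-30a-5p (0.66), miR-30d-5p (0.43), miR-30c-5p (1.13), let-7a-5p (0.065), let-7g-5p (0.61), miR-24-3p (1.05) and miR-378a-3p (1.19). Without the filter it turned for miR-146a-5p (0.14), miR-30c-5p (0.17), miR-24-3p (0.021) and miR-378a-3p (0.17), and with identical rows counted once for miR-145a-5p (−0.053) and miR-27a-3p (−0.063). With single libraries left out, values near 0 crossed it for miR-1a-1-5p (−0.65 to 0.16), miR-150-5p (−0.91 to 0.20), miR-146a-5p (−0.38 to 0.029) and miR-30c-5p (−0.30 to 0.098), each positive without D0 replicate 1, and for miR-499-3p (−0.012 to 0.77), miR-145a-5p (−0.14 to 0.34), miR-27a-3p (−0.061 to 0.073) and, at D7 against D3, miR-93-5p (−0.22 to 0.13). Same-numbered D0 and D3 libraries deviated from their group means with correlations of −0.55, 0.04, −0.21 and −0.31, so the numbers were not taken as pairs. With the replicate block 269 miRNAs differed. The block moved miR-133b-3p (1.04) out of the calls and miR-126a-3p (−0.54) into them. Arm ratios changed in 57 to 68 of 99 hairpins with single libraries left out, and with a pseudocount of 5 in 70.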

Other observations

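Some miRNAs of the CM libraries stood out beside the comparisons above. miR-206-3p, a miRNA of skeletal muscle that shares its seed with miR-1a-3p, had 0.0491% to 0.0664% of the miR-1a-3p count in all 8 libraries. The star arms miR-486a-3p and miR-486b-3p had 10.1% to 23.9% and 8.49% to 19.0% of the miR-486a-5p count at D0 and 7.75% to 9.82% and 6.12% to 7.29% at D3. The ratio of miR-10b-5p to miR-10a-5p, which differ by 1 base, was 83.3% to 89.5% at D0 and 82.6% to 86.8% at D3. miR-122-5p, the main miRNA of liver, had 0.561 to 1.56 CPM at D0 and 0.409 to 1.29 CPM at D3 in CMs, against means of 161 CPM in ECs and 146 CPM in FBs at D0. A cluster on chromosome X (positions 66776757 to 66839125, minus strand, GRCm38.p6) held 6 tested miRNAs, among them miR-881-3p and miR-871-3p. All 6 were lower on the TMM scale (23.3% over all miRNAs), with a median log2 fold change of −3.44. By library size their values ran from −3.41 (miR-871-3p) to 0.67 (miR-741-3p). These miRNAs were rare, with means over the 8 libraries from 0.567 CPM (miR-470-5p) to 7.08 CPM (miR-881-3p).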
